A study of Rattus norvegicus with 9 samples.

Results

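Heat shock proteins and other molecular chaperones were described in rat striatum after intracerebral hemorrhage and in the group named for edaravone dexborneol. The set holds every row of the count files whose gene ID begins with Hspa, Hspb, Hspd, Hspe, Hsph, Hsp90, Dnaja, Dnajb, Dnajc, Bag or Cct followed by a digit or the letter a. It also holds 13 named genes of the endoplasmic reticulum (ER) and of stress signalling: Sdf2l1, Hsf1, Pdia3, Pdia4, Pdia6, Calr, Canx, Xbp1, Atf4, Atf6, Ddit3, Ern1 and Herpud1. This gave 98 genes out of 22890, and 89 of them had enough counts to be tested. The set and its role classes were chosen by name, with earlier results of these data known. RNA was sequenced in 9 libraries of striatal tissue, 3 each of Sham (the control), ICH (intracerebral hemorrhage) and EDB (edaravone dexborneol, the free radical scavenger edaravone joined with dexborneol). The labels give no strain, age, sex, dose or time, and they describe neither the sham procedure nor how the hemorrhage was made. Whether the EDB rats also bled is not stated, and EDB is set against each of the other groups. Separate animals are not named either, and p-values measure only how much these 9 samples spread.

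Chaperones bind proteins that are not yet folded or have lost their fold. In the cytosol, Hsp70 proteins work in cycles set by J domain partners and by exchange factors such as the Bag proteins, small heat shock proteins hold unfolding clients without ATP, and Hsp90 and the chaperonin ring act on selected clients. When misfolded protein builds up there, the transcription factor Hsf1 switches on heat shock genes through heat shock elements in their promoters. The ER has its own lectins, disulfide isomerases and Hsp70, whose genes answer to the sensors Ern1, Atf6 and Eif2ak3 in the unfolded protein response. Small heat shock proteins are known in brain for their rise in reactive astrocytes.

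Levels are in CPM, the count of a gene scaled to the size of its library, and are listed in the order of libraries 1, 2 and 3 of each group. Differences are fitted log2 fold changes with their SE (n = 3 in each group). Rose, fell and called are used for genes with an adjusted p under 0.05, adjusted over all 14274 genes tested. Total counts ran from 14658110 to 17659936. Mitochondrially encoded protein genes held 2.93% of counts in ICH 2 and 12.0% in Sham 3, the lowest and highest shares. Hba-a2, a hemoglobin gene, was at 539, 510 and 689 CPM in Sham. Its level was 129, 997 and 65.2 CPM in ICH and 1248, 255 and 1192 CPM in EDB. A few libraries stood apart. EDB 3 held choroid plexus transcripts (5 marker genes summed to 7266 CPM, against 27.7 to 74.1 CPM elsewhere), ICH 1 had no counts of the Y-linked Kdm5d and Eif2s3y, and Alb stood at 166 and 165 CPM in Sham 1 and Sham 3 against 2.27 to 25.8 CPM in the other 7. Neuron, striatal projection neuron, oligodendrocyte and glial markers were present in every library, except Serpina3n of the reactive astrocyte list, which had no counts in Sham 2, ICH 1 and EDB 1. The tissue is bulk, so fewer cells of a type and less RNA per cell cannot be told apart.

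Promoters were read from a RefSeq table of the rat assembly GRCr8, which covers 250 bases before and 50 bases after a gene's start site and holds 77 of the 98 genes. They were searched on both strands for the heat shock element, written as GAANNTTC or TTCNNGAA, where N is any base. They were also searched for the ER stress element, which is CCAAT, then 9 bases, then CCACG. The other 2 motifs searched were the Xbp1 and Atf6 element TGACGTGG and the Atf4 and C/EBP element TTGCATCA. A heat shock element of these letters was in 20 of the 77 promoters (26.0%) and in 15.4% of the 27457 gene symbols of the table, read with the first promoter listed for each. The ER stress element was in 5 of 77 (6.49%) against 0.0765% of the table, and the Xbp1 and Atf6 element in 5 of 77 (6.49%) against 0.637%. The Atf4 and C/EBP element was in 1 of 77 (1.3%, Herpud1) against 0.743%. The set includes genes named for the ER and stress signalling, so these shares are a description and not a test. Stretches before the start site are printed 5′ to 3′ in the direction of the gene, with the matched letters in capitals. The first set shows heat shock elements of genes that rose in ICH (Hspb1, Bag3, Hspa2) beside those of genes that were not called (Hspa8, Hspe1). In the Bag3 stretch the last capitals, close to its end, mark the Xbp1 and Atf6 element on the opposite strand.
Hspb1: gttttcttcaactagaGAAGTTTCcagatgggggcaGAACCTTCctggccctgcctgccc
Bag3: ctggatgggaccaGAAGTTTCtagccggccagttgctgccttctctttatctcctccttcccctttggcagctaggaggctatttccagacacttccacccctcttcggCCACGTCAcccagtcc
Hspa2: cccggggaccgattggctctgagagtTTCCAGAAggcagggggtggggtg
Hspa8: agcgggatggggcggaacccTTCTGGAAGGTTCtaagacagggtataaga
Hspe1: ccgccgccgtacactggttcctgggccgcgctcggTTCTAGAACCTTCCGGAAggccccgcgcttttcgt
On GRCr8 these lie at chr12:26432387-26432446, minus strand (Hspb1), chr1:192533315-192533439, plus strand (Bag3), chr6:100864352-100864401, plus strand (Hspa2), chr8:50080439-50080488, plus strand (Hspa8) and chr9:64084227-64084296, plus strand (Hspe1). Hspb1 holds elements that begin 129 and 109 bases before its start site. The Hspe1 stretch carries 3 overlapping elements and is shared with Hspd1, which starts 290 bases away on the other strand. Of the 9 genes called higher in ICH with a promoter in the table, 4 held a heat shock element (Hspb1, Bag3, Hspa2 and Cct4). So did 1 of the 2 called lower (Dnajc27) and 14 of the 59 tested genes not called there. In Cct4 the elements lie after the start site.

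The second set shows the ER stress elements, of which 1 belongs to a gene that rose in ICH (Calr) and 4 to genes that were not called (Canx, Hspa5, Dnajc3 and Xbp1). In Calr the element reads on the opposite strand.
Calr: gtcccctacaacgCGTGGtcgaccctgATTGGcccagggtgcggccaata
Canx: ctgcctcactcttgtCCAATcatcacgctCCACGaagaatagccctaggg
Hspa5: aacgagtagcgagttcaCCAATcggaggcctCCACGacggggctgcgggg
Dnajc3: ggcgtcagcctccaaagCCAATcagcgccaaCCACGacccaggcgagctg
Xbp1: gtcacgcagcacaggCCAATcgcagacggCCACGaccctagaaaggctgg
Their places on GRCr8 are chr19:40213122-40213171, plus strand (Calr), chr10:35158053-35158102, minus strand (Canx), chr3:38452956-38453005, plus strand (Hspa5), chr15:102432517-102432566, plus strand (Dnajc3) and chr14:84604543-84604592, plus strand (Xbp1). A match of letters is a description and not a measured site, and the table does not hold Hsf1, Pdia3, Pdia6 or Dnajc22.

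In the comparison of ICH with Sham, which asks what the hemorrhage changed, 12 of the 89 tested chaperone genes rose and 4 fell. That is 18.0% called, against 18.7% of all genes tested, with 11.4% of all genes called higher and 7.30% called lower. As a set the chaperones were therefore called about as often as any gene, and this share is not a result about them. Their median log2 fold change was 0.11, against 0.0066 for all genes. What the set holds is a small number of genes with sizeable changes: the small heat shock protein Hspb1, 5 of the 6 ER folding genes, the Hsp70 relative Hspa2 and the co-chaperone Bag3 rose, with a doubt about the identity of the Hspa2 row that is given with its values. EDB differed from ICH in 1 chaperone gene, Hspb1, and from Sham in 7. Without Sham 3, ICH 1, ICH 2 or ICH 3 the genes that fell in ICH numbered 2. The share of all genes called was 12.3% without ICH 1 and between 13.2% and 18.1% without any other single library.

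**Figure D1:**
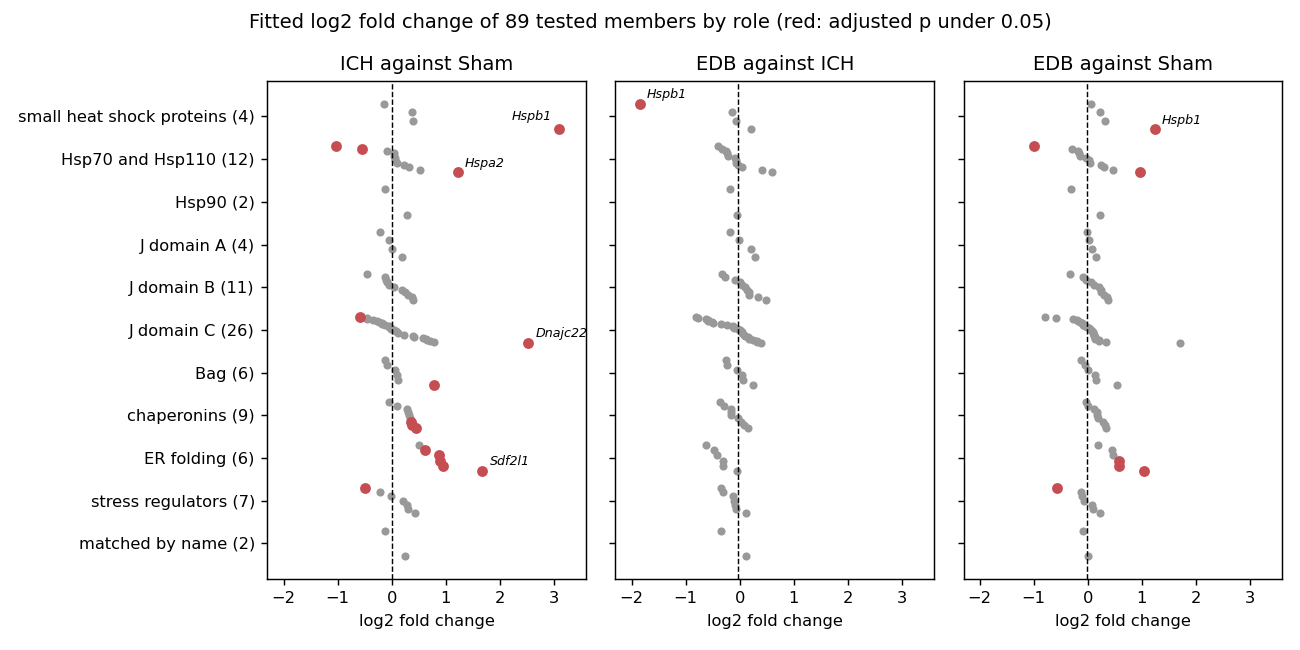
Fitted log2 fold change (x axis) of the 89 tested chaperone genes in each of the 3 comparisons, grouped by role on the y axis with the number tested in brackets. Each point is a gene, red points passed an adjusted p of 0.05, and the dashed line is the median of all genes tested. Hspb1, Dnajc22, Sdf2l1 and Hspa2 lie farthest to the right in ICH against Sham, and Hspb1 is the only red point in EDB against ICH.

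Among the small heat shock proteins, Hspb1 had the largest change of any chaperone. It encodes Hsp27, which binds unfolding proteins and actin filaments. Its level was 8.81, 8.76 and 8.85 CPM in Sham, 69.1, 79.3 and 76.5 CPM in ICH and 21.5, 11.0 and 29.9 CPM in EDB. The Sham libraries were nearly identical, every ICH library was far above them, and the EDB libraries lay between, with EDB 2 close to Sham. Hspb1 rose in ICH by 3.09 ± 0.29, adjusted p = 6.46e-05. It was lower in EDB than in ICH (-1.85 ± 0.27, adjusted p = 0.0244) and higher in EDB than in Sham (1.24 ± 0.28, adjusted p = 0.0235). The first of these calls held in each of the 17 alternative settings. The difference between EDB and ICH lost its call when any ICH library or EDB 1 was left out (adjusted p between 0.0568 and 0.088). The difference between EDB and Sham lost its call in 6 settings, among them those without Sham 1, Sham 3, EDB 1 or EDB 3, with adjusted p between 0.0615 and 0.0819.

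Of the 6 reactive astrocyte markers listed, Gfap, Vim, Timp1, Nes and Cd44 rose in ICH. Timp1, Nes and Cd44 were lower in EDB than in ICH. The EDB mean lay between those of Sham and ICH for Gfap, Vim, Timp1 and Cd44, as it did for Hspb1. Vim averaged 109 CPM in Sham, 645 CPM in ICH and 245 CPM in EDB, and Cd44 averaged 17.8, 65.5 and 21.3 CPM. Nes differed from these, with means of 14.7 CPM in Sham, 65.0 CPM in ICH and 11.9 CPM in EDB. Serpina3n was not called (ICH against Sham -3.22 ± 1.40, adjusted p = 0.145), and its mean was highest in Sham. That mean rests on Sham 1 and Sham 3 (7.44 and 7.57 CPM, with 0 in Sham 2), the libraries that were also high in Alb. The summed level of the list, most of it Gfap, was 553 to 717 CPM in Sham, 5248 to 5989 CPM in ICH and 2965 to 4183 CPM in EDB. The 8 microglia and macrophage markers all rose in ICH and in EDB against Sham, with sums of 577 to 636 CPM, 3024 to 3159 CPM and 1344 to 2368 CPM in Sham, ICH and EDB. The part of either cell type in the chaperone results was not tested.

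The other small heat shock proteins were not called in any comparison. Hspb8, which works with Bag3 to deliver misfolded protein to autophagy, was measured at 42.2, 30.1 and 33.1 CPM in Sham, 40.3, 46.6 and 49.8 CPM in ICH and 35.8, 25.8 and 61.8 CPM in EDB. Its groups overlapped, and EDB 3 was its highest library (ICH against Sham 0.37 ± 0.27, adjusted p = 0.389). Hspb6, a relative best known from muscle and the member of this class with the highest mean CPM, ran from 35.1 to 56.0 CPM over the 9 libraries (ICH against Sham -0.15 ± 0.17, adjusted p = 0.635). Hspb2 ran from 2.34 to 4.03 CPM. Hspb3, Hspb7 and Hspb9 had 6, 56 and 18 counts over all libraries and were not tested. Cryab, the alpha B crystallin of lens and glia, is a small heat shock protein that the naming rule leaves out. It was measured at 37.1, 51.0 and 40.6 CPM in Sham, 65.4, 52.8 and 33.3 CPM in ICH and 99.6, 94.7 and 105 CPM in EDB. The EDB libraries were the 3 highest of the 9, and Cryab rose in EDB against Sham (1.22 ± 0.22, adjusted p = 0.00666), with EDB against ICH at 0.98 ± 0.21, adjusted p = 0.0660 and ICH against Sham at 0.24 ± 0.21, adjusted p = 0.512. The 4 oligodendrocyte markers, a cell type that is rich in Cryab, summed to 13420 to 23060 CPM in Sham, 12610 to 25400 CPM in ICH and 30630 to 36960 CPM in EDB, and their part in this was not tested.

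The Hsp70 and Hsp110 class held 12 tested genes, of which 1 rose and 2 fell in ICH (25.0% called, against 18.7% of all genes). Hspa2, an Hsp70 known for its part in sperm formation and also made in brain, was measured at 18.1, 19.7 and 17.4 CPM in Sham, 54.2, 36.4 and 37.8 CPM in ICH and 37.1, 31.7 and 38.7 CPM in EDB. All ICH and EDB libraries lay above all Sham libraries, and ICH 1 was the highest. It rose in ICH (1.22 ± 0.17, adjusted p = 0.000662) and in EDB against Sham (0.96 ± 0.17, adjusted p = 0.00692), and both calls held in all 17 settings. EDB against ICH was not called (-0.26 ± 0.17, adjusted p = 0.484). The row was read as the gene that now has this symbol, although the reference table also lists Hspa2 as an older symbol of 1 other gene, Hspa1b, the stress-inducible Hsp70. Hspa1a and Hspa1b under their own names were not analysed here. Apart from this doubt about the Hspa2 row, no value given here speaks of them.

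Both genes of this class that fell are distant relatives of Hsp70. Hspa12b, known from endothelial cells, was measured at 14.1, 15.3 and 13.4 CPM in Sham, 7.35, 7.55 and 5.99 CPM in ICH and 9.40, 6.65 and 5.50 CPM in EDB. Sham lay above every ICH and EDB library, and Hspa12b fell in ICH (-1.03 ± 0.23, adjusted p = 0.00899) and in EDB against Sham (-0.99 ± 0.23, adjusted p = 0.0238). The second call was lost when Sham 1, Sham 3, EDB 2 or EDB 3 was left out, at adjusted p between 0.0591 and 0.0751. The 4 endothelial markers measured summed to 540.5 to 698 CPM in Sham, 450.4 to 518 CPM in ICH and 449.8 to 561 CPM in EDB. Of them Flt1 fell in both comparisons with Sham, and Pecam1, Cdh5 and Slc2a1 were not called. Their part in the result was not tested. Hspa12a, the relative known from brain, was measured at 172, 269.7 and 216 CPM in Sham, 155, 145 and 149 CPM in ICH and 241, 249 and 187 CPM in EDB. ICH lay below all Sham and EDB libraries, and Sham and EDB overlapped. Its fall in ICH (-0.55 ± 0.17, adjusted p = 0.0422) lost its call in 10 of 17 settings (adjusted p from 0.0511 to 0.115). It was higher in EDB than in ICH at an unadjusted level only (0.59 ± 0.17, adjusted p = 0.122), although DESeq2 called it (adjusted p = 0.0289). Neuron markers, 5 genes, summed to 3084 to 3980 CPM in Sham, 1733 to 2297 CPM in ICH and 2136 to 2536 CPM in EDB, and 2 of them fell in ICH. Of the 6 striatal projection neuron markers 4 fell in ICH, and the part of either list in the Hspa12a result was not tested.

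Of the abundant Hsp70 genes, Hspa8, Hspa5 and Hspa9 were not called. Hspa8, the constitutive cytosolic Hsp70, was measured at 1151, 1353 and 1282 CPM in Sham, 1822, 1476 and 1421 CPM in ICH and 1483, 1559 and 1459.7 CPM in EDB. Every ICH and EDB library lay above every Sham library, yet the differences did not pass (ICH against Sham 0.32 ± 0.14, adjusted p = 0.135, EDB against Sham 0.25 ± 0.14, adjusted p = 0.311), although scaling by library size alone called it higher in ICH (adjusted p = 0.0321). Hspa5, the ER Hsp70 called BiP, was measured at 206, 189 and 241 CPM in Sham, 422, 256 and 229 CPM in ICH and 197, 293 and 287 CPM in EDB. ICH 1 stood apart at 422 CPM and the other libraries overlapped between groups, with ICH against Sham at 0.51 ± 0.23, adjusted p = 0.154 and at 0.20 (adjusted p = 0.561) without ICH 1. Hspa9, the mitochondrial Hsp70, ran from 117 to 164 CPM over all libraries. Hsph1, an Hsp110 that exchanges nucleotide on Hsp70 and a target of Hsf1, was measured at 306, 281 and 268 CPM in Sham, 249, 274 and 285 CPM in ICH and 204, 325 and 235 CPM in EDB, with overlapping groups (ICH against Sham -0.0817 ± 0.16, adjusted p = 0.793). Reads of Hspa8, Hspd1, Hspe1, Hsp90aa1 and Hsp90ab1 can be split with near-identical copies elsewhere in the genome, and this was not measured.

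**Figure D2:**
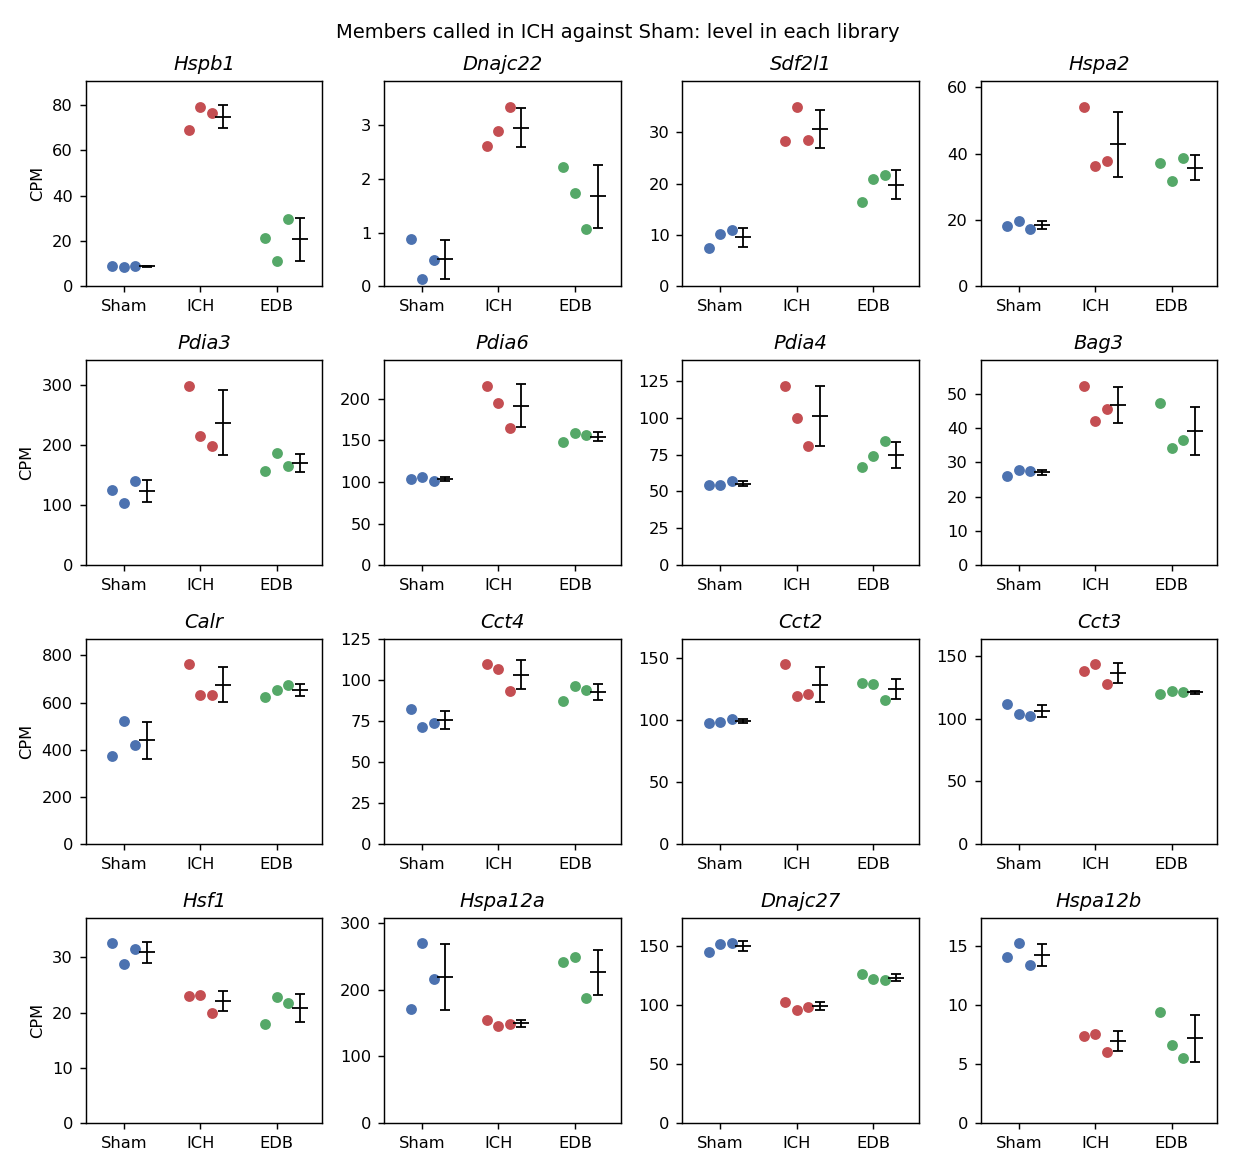
Level in CPM (y axis, from 0) of the 16 chaperone genes called in ICH against Sham, for the groups on the x axis. Coloured points are the 3 libraries of a group in the order 1, 2, 3, and the black bar beside them is the mean with the SD (n = 3). Hspb1 and Sdf2l1 lie highest in ICH with EDB between, Hspa2, Calr and Hspa12b have EDB libraries among or close to the ICH libraries, and Hspa12a has EDB libraries among the Sham libraries.

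The 2 cytosolic Hsp90 genes differed in their spread. Hsp90aa1, the stress-inducible form, was measured at 179, 84.1 and 241 CPM in Sham, 269, 84.2 and 112 CPM in ICH and 109.8, 155 and 143 CPM in EDB. It varied 3.19-fold within ICH and 2.86-fold within Sham, while no difference between groups passed (ICH against Sham -0.12 ± 0.44, adjusted p = 0.898). Hsp90ab1, the constitutive form, was measured at 744, 1001 and 768 CPM in Sham, 985, 1036 and 1032 CPM in ICH and 1019.8, 986 and 928 CPM in EDB. It varied 1.05-fold within ICH and 1.35-fold within Sham (ICH against Sham 0.28 ± 0.14, adjusted p = 0.187), and scaling by library size alone (adjusted p = 0.0467) or leaving out Sham 2 (adjusted p = 0.0219) called it higher.

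J domain proteins bring clients to Hsp70 and start its ATP cycle. Classes A and B, 15 tested genes, had no call in any comparison by edgeR. Of all genes 18.7%, 0.687% and 7.66% were called in ICH against Sham, EDB against ICH and EDB against Sham. An unadjusted p under 0.05 was found for 3, 1 and 3 of the 15 genes, in the same order. The share of all genes at this unadjusted level was not counted, so these numbers are not a result about the classes. DESeq2 called 1 of the 15 genes, Dnajb5, lower in ICH (adjusted p = 0.0476). In other settings edgeR called Dnajb11 higher in ICH when only library size set the scale (adjusted p = 0.0165) or Sham 2 was left out (adjusted p = 0.0255), and Dnajb2 higher in EDB against Sham without Sham 2 (adjusted p = 0.0493). Dnajb1, the inducible Hsp40, was measured at 69.8, 92.1 and 65.7 CPM in Sham, 72.5, 81.2 and 79.7 CPM in ICH and 96.5, 78.2 and 88.1 CPM in EDB, with overlapping groups (ICH against Sham 0.0366 ± 0.15, adjusted p = 0.903). Dnaja1, its class A counterpart, ran from 59.0 to 134 CPM and was lowest in Sham 2 and EDB 1 (ICH against Sham 0.19 ± 0.28, adjusted p = 0.706). The genes of each class with the highest mean CPM were Dnaja4, with ICH against Sham at -0.22 ± 0.15, adjusted p = 0.358, and Dnajb2, a J protein of neurons. Dnajb2 was measured at 170.3, 203 and 135 CPM in Sham, 154, 182 and 138 CPM in ICH and 225, 202 and 234 CPM in EDB, so that all EDB libraries lay above all ICH libraries without a call (EDB against ICH 0.48 ± 0.16, adjusted p = 0.181). The ER residents of class B in ICH against Sham were at 0.38 ± 0.13, adjusted p = 0.0644 for Dnajb11, a partner of BiP, and at 0.31 ± 0.26, adjusted p = 0.472 for Dnajb9, an Xbp1 target.

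Class C held 26 tested genes, with 1 rise and 1 fall in ICH (7.69% called, against 18.7% of all genes). Dnajc27, a Rab-like GTPase that carries a J domain, was measured at 145, 152 and 153 CPM in Sham, 103, 96.3 and 98.2 CPM in ICH and 127, 122 and 121 CPM in EDB. The groups formed separate bands, Sham highest and ICH lowest. Its fall in ICH (-0.597 ± 0.0956, adjusted p = 0.00147) held in all 17 settings, and EDB against ICH (0.31 ± 0.0954, adjusted p = 0.145) and EDB against Sham (-0.28 ± 0.0952, adjusted p = 0.100) were called by DESeq2 only (adjusted p of 0.0279 and 0.041). Dnajc22 rested on few reads, with 14, 2 and 7 counts in Sham, 45, 46 and 62 in ICH and 36, 29 and 17 in EDB. All ICH libraries lay above all EDB libraries and these above all Sham libraries, with a rise in ICH (2.52 ± 0.54, adjusted p = 0.00829) that held in all 17 settings. Dnajc3, an ER J protein that also restrains the kinase Eif2ak3, was measured at 12.7, 10.1 and 15.6 CPM in Sham, 27.3, 16.5 and 19.3 CPM in ICH and 10.5, 16.2 and 15.3 CPM in EDB. ICH lay above both other groups, but neither ICH against Sham (0.71 ± 0.25, adjusted p = 0.0693) nor EDB against ICH (-0.59 ± 0.25, adjusted p = 0.272) was called by edgeR. DESeq2 (adjusted p = 0.0461) and scaling by library size alone (adjusted p = 0.0487) called it higher in ICH than in Sham. The J proteins of synaptic vesicles and clathrin coats were not called either: Dnajc5, the cysteine string protein, at -0.18 ± 0.15, adjusted p = 0.472 and Dnajc6, auxilin, at -0.23 ± 0.14, adjusted p = 0.291 in ICH against Sham. Dnajb7, Dnajb8, Dnajc5b and Dnajc5g were not tested, with 3 counts of Dnajb7 and none of the other three, which allows up to 0.0207 CPM over all libraries.

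Of 6 Bag co-chaperones, only Bag3 was called (16.7% in ICH against Sham, where 18.7% of all genes were called). Bag3 joins Hsp70 to Hspb8 in the removal of aggregated protein and is a target of Hsf1. Its level was 26.1, 27.7 and 27.3 CPM in Sham, 52.4, 42.0 and 45.5 CPM in ICH and 47.1, 34.0 and 36.4 CPM in EDB. Every ICH and EDB library lay above every Sham library, and EDB 1 was higher than ICH 2 and ICH 3. It rose in ICH (0.79 ± 0.15, adjusted p = 0.00431) in all 17 settings, and EDB against Sham missed the threshold (0.54 ± 0.15, adjusted p = 0.0542) but passed it in 3 settings (adjusted p from 0.0241 to 0.0461). Bag6, which sorts stray membrane proteins and had the highest mean CPM of the class, ran from 219.7 to 306 CPM (ICH against Sham -0.12 ± 0.14, adjusted p = 0.620).

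Chaperonins are ring-shaped folding chambers. The cytosolic ring, built of Cct subunits and Tcp1, folds actin and tubulin. Of 9 chaperonin genes tested, 3 rose in ICH (33.3%, against 11.4% of all genes). All 3 are subunits of this ring, and each rise was small. Cct4 was measured at 82.0, 71.3 and 73.6 CPM in Sham, 109, 107 and 93.4 CPM in ICH and 86.9, 96.2 and 94.1 CPM in EDB (0.45 ± 0.11, adjusted p = 0.0181 in ICH against Sham). Cct3 rose by 0.36 ± 0.0997, adjusted p = 0.0270 and Cct2 by 0.38 ± 0.11, adjusted p = 0.0400. In these 3 genes the ICH libraries lay above all Sham libraries. The calls were not firm: Cct2 lost its call in 13 of 17 settings, Cct3 in 6 and Cct4 in 3, and none of the 3 was called without Sham 3, without ICH 1 or without ICH 2. The subunits not called were Cct5 (0.29 ± 0.101, adjusted p = 0.0661), which had the highest mean CPM of the class, Cct6a (0.34 ± 0.11, adjusted p = 0.0549), Cct8 (0.29 ± 0.18, adjusted p = 0.299), Cct7 (0.104 ± 0.12, adjusted p = 0.621) and, outside the naming rule, Tcp1 (0.35 ± 0.14, adjusted p = 0.116). Scaling by library size alone called 5 of the 9. Cct6b and Cct8l1 had 26 and 19 counts over all libraries and were not tested. Of 5 tested prefoldin subunits, which pass new actin and tubulin to this ring, Pfdn2 fell in ICH (-0.58 ± 0.12, adjusted p = 0.00843) and the others were not called. That is 20% called, against 18.7% of all genes.

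The mitochondrial ring is built of Hspd1 (Hsp60) and its lid Hspe1 (Hsp10), whose genes lie head to head. Hspd1 was measured at 89.9, 65.5 and 104 CPM in Sham, 121, 96.8 and 105 CPM in ICH and 71.6, 105 and 75.7 CPM in EDB, and Hspe1 at 55.4, 66.0 and 60.9 CPM in Sham, 58.7, 55.5 and 61.7 CPM in ICH and 65.3, 57.9 and 73.1 CPM in EDB. Neither was called (ICH against Sham 0.32 ± 0.19, adjusted p = 0.294 for Hspd1 and -0.0511 ± 0.12, adjusted p = 0.835 for Hspe1). Although they share the promoter stretch printed above, their levels did not keep a fixed ratio. Hspd1 divided by Hspe1 in CPM was 1.62, 0.992 and 1.71 in Sham, 2.06, 1.74 and 1.71 in ICH and 1.10, 1.81 and 1.04 in EDB. The ratio was lowest in Sham 2, EDB 3 and EDB 1, which held the 3 lowest levels of Hspd1 and the 3 highest of Hspe1. By edgeR 18.7%, 0.687% and 7.66% of all genes were called in ICH against Sham, EDB against ICH and EDB against Sham. None of the 9 tested partners in mitochondrial protein quality control, among them Trap1, Lonp1 and Clpp, was called in any of these. Grpel2, the exchange factor of the mitochondrial Hsp70, was the only 1 with an unadjusted p under 0.05 (ICH against Sham -0.53 ± 0.19, adjusted p = 0.0817, EDB against Sham -0.599 ± 0.19, adjusted p = 0.0862), and DESeq2 called it lower in both.

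**Figure D3:**
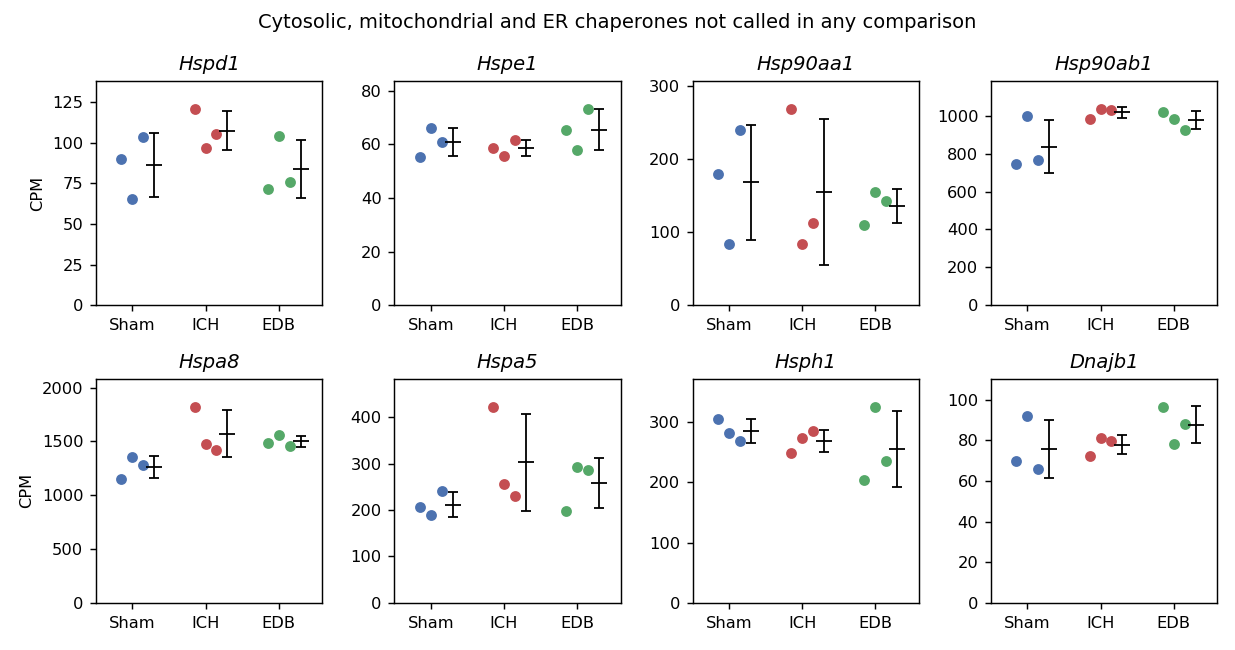
Level in CPM (y axis, from 0) of 8 major chaperone genes that were not called in any comparison, by group on the x axis. Coloured points are libraries 1, 2 and 3 of a group, with the mean and SD (n = 3) in black beside them. Hsp90aa1 spreads from 84.1 to 269 CPM over the 9 libraries, Hspa5 has 1 high ICH library at 422 CPM, and Hspd1 and Hspe1 do not follow each other.

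In the ER folding class 5 of 6 genes rose in ICH, where 11.4% of all genes rose. The class was chosen with earlier results of these data known, so its shares are a description and not separate evidence. The median log2 fold change of the class was 0.88, against 0.0066 for all genes. In EDB against Sham 3 of the 6 rose, where 4.95% of all genes were higher. Of these 3 genes 1 was called without Sham 1 or without Sham 3. Sdf2l1, an ER protein that keeps BiP and its J domain partner Dnajb11 with their clients, was measured at 7.50, 10.3 and 11.0 CPM in Sham, 28.4, 35.0 and 28.5 CPM in ICH and 16.5, 21.0 and 21.8 CPM in EDB. The groups did not overlap, with Sham lowest and ICH highest. Sdf2l1 rose in ICH (1.68 ± 0.19, adjusted p = 0.000157) and in EDB against Sham (1.05 ± 0.19, adjusted p = 0.00723) in all 17 settings, and EDB against ICH was not called (-0.63 ± 0.18, adjusted p = 0.129).

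The disulfide isomerases, which form and correct disulfide bonds, rose in ICH as well. Pdia6 was measured at 104, 106 and 101 CPM in Sham, 216, 195 and 165 CPM in ICH and 148, 158 and 157 CPM in EDB and formed 3 separate bands in the same order as Sdf2l1. Its change was 0.89 ± 0.12, adjusted p = 0.000438 in ICH and 0.58 ± 0.12, adjusted p = 0.0135 in EDB against Sham, and the second call was lost without Sham 1 or Sham 3 (adjusted p of 0.0542 and 0.0617). Pdia3, the partner of calnexin and calreticulin on glycoproteins, was measured at 125, 103 and 139.9 CPM in Sham, 299, 215 and 199 CPM in ICH and 158, 187 and 165 CPM in EDB. Here too Sham was lowest and ICH highest without overlap, and ICH 1 was the highest library. It rose in ICH (0.95 ± 0.17, adjusted p = 0.00313) and was not called in EDB against Sham (0.47 ± 0.17, adjusted p = 0.128). Pdia4 was measured at 54.2, 54.4 and 57.1 CPM in Sham, 122, 100.1 and 81.0 CPM in ICH and 66.8, 73.9 and 84.1 CPM in EDB, with EDB 3 just above ICH 3. It rose in ICH (0.87 ± 0.15, adjusted p = 0.00276) and was not called in EDB against Sham (0.44 ± 0.15, adjusted p = 0.112).

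Calr and Canx are the lectin chaperones that hold glycoproteins in the ER. Calr was measured at 372, 524 and 422 CPM in Sham, 762, 634 and 632 CPM in ICH and 625, 654 and 676 CPM in EDB. Both ICH and EDB lay above all Sham libraries and overlapped each other. It rose in ICH (0.62 ± 0.15, adjusted p = 0.0128) and in EDB against Sham (0.57 ± 0.15, adjusted p = 0.0386). The first call was lost without Sham 1 or ICH 1 (adjusted p of 0.0762 and 0.0513), and the second in 10 of 17 settings (adjusted p from 0.0504 to 0.164). Canx was measured at 277, 181 and 332 CPM in Sham, 497, 283 and 336 CPM in ICH and 234, 378 and 284 CPM in EDB, so that the groups overlapped, and it was not called (ICH against Sham 0.498 ± 0.26, adjusted p = 0.227). Without ICH 1 the change of Canx was 0.24 (adjusted p = 0.632). Pdia3, Pdia4, Pdia6 and Sdf2l1 kept their rise without ICH 1 (0.75, 0.71, 0.80 and 1.73).

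A list of 34 further genes of ER stress and ER quality control was read beside these. It was chosen by function but with earlier results of these data known, so its shares are a description and not separate evidence. Of its 31 tested genes 8 rose in ICH and none fell by edgeR (25.8% called, against 18.7% of all genes in either direction and 11.4% higher), and DESeq2 and limma-voom called the same number. P4hb, the founding disulfide isomerase and a subunit of collagen prolyl hydroxylase, was measured at 193, 223 and 173 CPM in Sham, 399.7, 415 and 389 CPM in ICH and 335, 275 and 289.9 CPM in EDB and rose by 1.03 ± 0.13, adjusted p = 0.000277. Edem1 (0.93 ± 0.12, adjusted p = 0.000331) and Edem2 (0.97 ± 0.13, adjusted p = 0.000448) rose too, and both trim mannose from misfolded glycoproteins before disposal. The other 5 were Erp44 (0.64 ± 0.16), Erp29 (0.53 ± 0.12), Txndc5 (0.52 ± 0.12), Os9 (0.48 ± 0.11) and Uggt1 (0.41 ± 0.12), of which Uggt1 lost its call in 11 settings and the other four in 2 or 3 each. In EDB against Sham 3 of the 31 were higher (9.68%, against 4.95% of all genes): P4hb (0.61 ± 0.13, adjusted p = 0.0146), Edem1 (0.48 ± 0.12, adjusted p = 0.0326) and Edem2 (0.71 ± 0.13, adjusted p = 0.00733). EDB against ICH had none by edgeR, and DESeq2 called Edem1 lower. Without Sham 1 the list had 3 higher genes in ICH and none in EDB against Sham, without ICH 2 it had 4 in ICH, and without Sham 3 or EDB 1 it had 1 in EDB. Vcp, which pulls ER clients to the proteasome, and the proteasome subunit Psma1 rose in ICH (0.48 ± 0.101 and 0.43 ± 0.11), the only calls by edgeR among 12 disposal partners (16.7%, against 18.7% of all genes). Vcp kept its call in all 17 settings, and Psma1 lost it in 6, among them the replicate block and those without Sham 1, Sham 2 or any ICH library (adjusted p up to 0.0805). DESeq2 also called Synpo2 lower in ICH and Vcp higher in EDB against Sham.

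Several other ER stress genes were not called. Hsp90b1, the ER Hsp90, was measured at 148, 78.3 and 157 CPM in Sham, 309, 162 and 165 CPM in ICH and 115, 196 and 158 CPM in EDB, with ICH 1 at the top and ICH against Sham at 0.73 ± 0.32, adjusted p = 0.139. Hyou1, the ER Hsp110, did not differ beyond its spread (0.14 ± 0.14, adjusted p = 0.562). Ppp1r15a had no counts in any library.

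**Figure D4:**
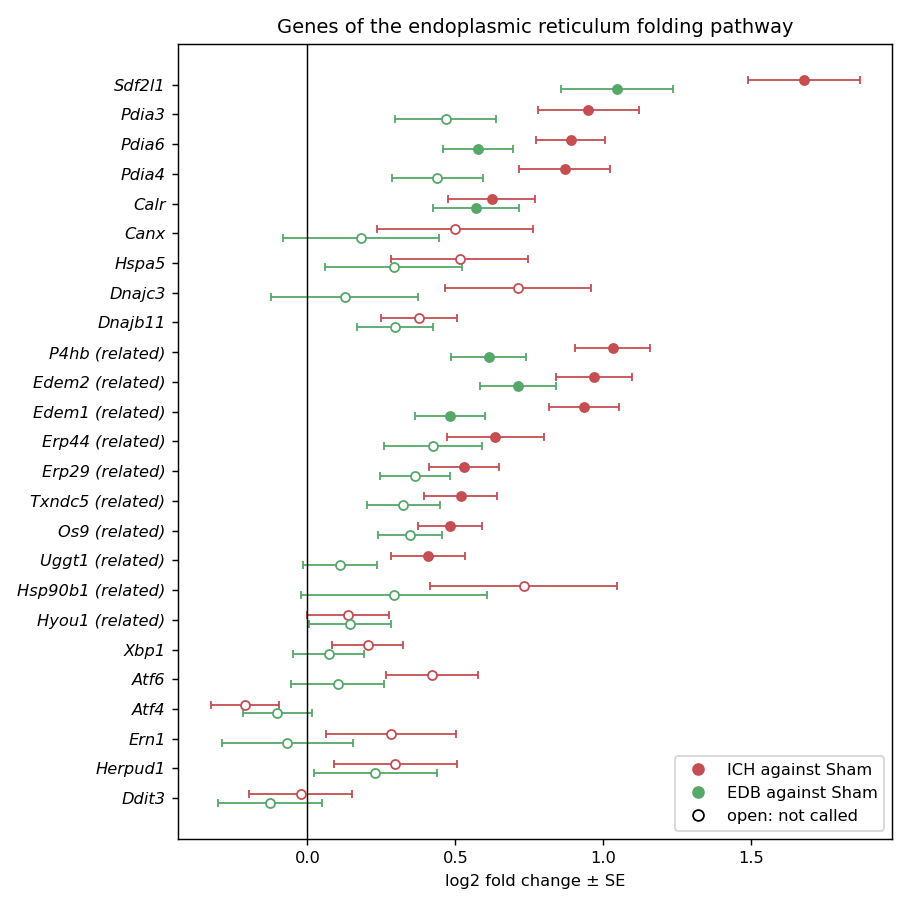
Fitted log2 fold change with its SE (x axis) for ER genes (y axis) in ICH against Sham (red) and EDB against Sham (green). Filled points passed an adjusted p of 0.05 and open points did not, and the label related marks genes outside the naming rule. Genes of folding and quality control from Sdf2l1 to Calr and P4hb to Uggt1 are filled in ICH, while Hspa5, Hsp90b1, Hyou1 and the regulators at the bottom are open.

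Of the 7 stress regulators, Hsf1 fell and the other six were not called (14.3% called in ICH, against 18.7% of all genes). Hsf1 was measured at 32.6, 28.9 and 31.4 CPM in Sham, 23.0, 23.1 and 19.9 CPM in ICH and 17.9, 22.8 and 21.7 CPM in EDB. All Sham libraries lay above all ICH and EDB libraries, with a fall in ICH (-0.49 ± 0.14, adjusted p = 0.0339) and in EDB against Sham (-0.57 ± 0.14, adjusted p = 0.0341). These calls were lost in 7 and 8 of 17 settings (adjusted p from 0.0594 to 0.119 and from 0.0511 to 0.137). Hsf1 is controlled mainly as a protein, which was not measured. Atf6, a membrane-bound sensor of the ER, was measured at 36.2, 32.6 and 43.0 CPM in Sham, 53.9, 48.7 and 47.1 CPM in ICH and 38.3, 47.7 and 33.9 CPM in EDB, with ICH above Sham and no call (0.42 ± 0.16, adjusted p = 0.0868). Xbp1, whose transcript is spliced when Ern1 is active, was measured at 98.2, 103 and 95.9 CPM in Sham, 127, 118 and 96.9 CPM in ICH and 101, 109 and 102 CPM in EDB (0.204 ± 0.12, adjusted p = 0.279), and counts per gene do not separate its spliced form. Ern1 (0.28 ± 0.22, adjusted p = 0.433), Herpud1 (0.297 ± 0.21, adjusted p = 0.374, called higher only without Sham 2 at adjusted p = 0.0486), Atf4, the factor with the highest mean CPM of the class (-0.21 ± 0.12, adjusted p = 0.243), and Ddit3, the death-linked factor CHOP (-0.0231 ± 0.17, adjusted p = 0.950), overlapped between ICH and Sham.

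The cytosolic system works with further co-chaperones, ligases and heat shock factors. Of 22 tested co-chaperones and heat shock response genes none was called in ICH against Sham by edgeR, where 18.7% of all genes were called. DESeq2 called 2 lower, Stub1 and Unc45a, and 21% of all genes. Of the 22 genes 5 had an unadjusted p under 0.05 by edgeR, and the share of all genes at this level was not counted. In this list Serpinh1, the collagen chaperone Hsp47, was measured at 93.9, 83.5 and 91.0 CPM in Sham, 143, 111 and 98.3 CPM in ICH and 79.3, 67.9 and 131 CPM in EDB (0.39 ± 0.22, adjusted p = 0.265), and Stub1, the ubiquitin ligase that works with Hsp70, had ICH below Sham (-0.42 ± 0.14, adjusted p = 0.0640). Cryab, described above, was the only call of this list in EDB against Sham (4.55%, against 7.66% of all genes). EDB against ICH had none by edgeR, where 0.687% of all genes were called, while DESeq2 and limma-voom called Cryab higher there. Hspb11 and Hspbap1 entered by name only, since neither acts as a small heat shock protein, and were not called (ICH against Sham 0.24 ± 0.27, adjusted p = 0.597 and -0.12 ± 0.196, adjusted p = 0.748).

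EDB was compared with ICH to ask whether the EDB libraries differed from those with hemorrhage. Only Hspb1 was called, lower in EDB, which is 1.12% of the 89 chaperone genes against 0.687% of all genes (0.056% higher and 0.631% lower). The share of all genes depended on single libraries, from 0.0552% without ICH 2 to 2.21% without Sham 2, and was 4.65% by DESeq2, which called 3.33% of the chaperone genes. No chaperone gene was called higher by edgeR, where 5 had an unadjusted p under 0.05 and DESeq2 called 2, Hspa12a and Dnajc27. Lower at an unadjusted p under 0.05 were 8 genes: Hspb1, Dnajc3, Dnajc9, Dnajc13, Sdf2l1, Pdia3, Pdia4 and Pdia6. The share of all genes at this unadjusted level was not counted, so the 5 and the 8 are not a result about the set. The log2 fold changes of Sdf2l1, Pdia3, Pdia4 and Pdia6 were -0.63 ± 0.18, -0.48 ± 0.17, -0.43 ± 0.15 and -0.31 ± 0.12. The adjusted p of these ER folding genes ran from 0.129 to 0.217. The median over the 89 genes was -0.0737, against -0.0332 for all genes.

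EDB against Sham asked what set the EDB libraries apart from controls. It had 5 chaperone genes higher (Hspa2, Sdf2l1, Pdia6, Hspb1 and Calr) and 2 lower (Hspa12b and Hsf1). That is 7.87% called, against 7.66% of all genes, with 4.95% of all genes higher and 2.71% lower, so again not a result about the set. The share of all genes ran from 3.51% without EDB 1 to 11.4% without Sham 2. The median log2 fold change was 0.0974, against -0.0073 for all genes. Hspa2 and Sdf2l1 were the 2 of these that stayed called in all 17 settings. Without EDB 3, the library with choroid plexus transcripts, 3 genes were called higher and 0 lower. Leaving out Sham 1 gave 2 higher and 0 lower, as did Sham 3, and leaving out EDB 1 gave 3 higher and 1 lower. Without ICH 2 or EDB 2 there was 1 lower.

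Within groups, chaperone genes varied no more than genes in general. The highest library divided by the lowest had a median over the 89 genes of 1.32 in Sham, 1.23 in ICH and 1.23 in EDB, against 1.40, 1.31 and 1.32 for all genes. Genes were not matched by level here, and counting error widens this ratio at low counts, so a smaller spread of chaperone genes is not read from it. ICH 1 was the highest ICH library for 48 of the 89 genes (53.9%, against 38.0% of all genes), and EDB 1 the lowest EDB library for 39 (43.8%, against 30.1%). The summed level of the 6 ER folding genes was 939 to 1064 CPM in Sham, 1440 to 1924 CPM in ICH and 1248 to 1473 CPM in EDB. ICH 1 gave the 1924 CPM and was also the highest library for the summed Hsp70 and Hsp110 genes, at 3123 CPM against 2203 to 2818 CPM in the other 8.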

How the data were processed

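Per the submitters' processing notes, reads of 9 rat striatum libraries were processed with cutadapt, HISAT2, HTSeq and limma on the genome build Rnor_6.0. Tool versions, strand setting and annotation: not given in the sources used here. Whole-number read counts for 22890 gene IDs were deposited by the authors, in a file for each library. These were fitted with edgeR 4.0.16 (R 4.3.3): filterByExpr by group left 14274 genes, libraries were scaled by TMM, and all 9 libraries entered 1 quasi-likelihood model (glmQLFit, robust) with a mean per group. A gene was called where the two-sided quasi-likelihood F test gave p under 0.05 after Benjamini-Hochberg adjustment across every gene tested. CPM use the TMM-scaled library sizes, and the SE is the log2 fold change divided by the root of F. For genes with no counts the upper limit is 3 counts, which covers counting error only. Alternatives used DESeq2 1.42.0, limma-voom (limma 3.58.1), other scalings and filters, the compared libraries alone, a replicate block, and 8 libraries at a time. The fit was tested on simulated counts.

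The members, role classes, related lists and marker lists were chosen with earlier results of these data known. Named are members called in any comparison, the member with the highest mean CPM of each class, well-known chaperones and stress regulators called or not, and of each related list the called genes and a few fixed names. Other genes were named after their values were seen (Hspb2, Dnajb2, Dnajc5, Grpel2, Stub1, Unc45a, Synpo2, other Cct subunits). Promoters are RefSeq sequences of GRCr8. The files rest on another build, so no gene coordinates of GRCr8 are given beyond those of the printed stretches. Levels of different genes are not compared, since gene lengths were not used. Overlapping genes and close copies carry an assignment uncertainty.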

Additional observations from a re-analysis of the deposited data

How the results depend on the processing

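Main counts of called chaperone genes were 12 higher and 4 lower for ICH against Sham, 0 higher and 1 lower for EDB against ICH, and 5 higher and 2 lower for EDB against Sham. The shares of all genes called were 18.7%, 0.687% and 7.66% in the same order, and these shares moved with the setting as well. With scaling by library size only, ICH against Sham gave 19 higher and 2 lower and EDB against Sham gave 1 lower. Of all genes 18.9% and 7.69% were called there. This scaling moved the median of all genes to 0.1025 (ICH against Sham) and -0.1051 (EDB against ICH). DESeq2 gave 2 higher in EDB against ICH and 8 higher and 4 lower in EDB against Sham, where it called 4.65% and 11.5% of all genes. With only the 6 libraries compared, EDB against Sham gave 3 higher and 1 lower, with 5.67% of all genes called. The replicate block gave 2 lower in ICH against Sham and 1 lower in EDB against Sham, with 14.7% and 5.61% of all genes called. Leaving out 1 library at a time gave 8 to 14 higher and 2 to 4 lower in ICH against Sham, 0 higher and 0 to 1 lower in EDB against ICH, and 2 to 6 higher and 0 to 3 lower in EDB against Sham. The shares of all genes called then ran from 12.3% to 18.1%, from 0.0552% to 2.21% and from 3.51% to 11.4%. The median log2 fold change over the chaperone genes ran from 0.073 to 0.205 for ICH against Sham, from -0.146 to 0.016 for EDB against ICH and from 0.062 to 0.137 for EDB against Sham. No called gene changed direction in any setting. Of the genes never called, 31 of 64, 30 of 86 and 36 of 76 changed sign in some setting, in the same order of comparisons, so no direction is read for them. The cause of these shifts was not tested.

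Counts of ER and chaperonin genes were followed through the same settings, a choice made after seeing the data. ER folding genes called higher numbered 4 to 5 in ICH and 1 to 3 in EDB against Sham when 1 library was left out. For the ER stress list these ranges were 3 to 9 and 0 to 4. Chaperonin genes called higher in ICH numbered 5 with library size only, 1 with only the 6 libraries compared, 1 with the replicate block, and 0 to 2 without 1 library.

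The labels number the libraries 1 to 3 in each group, but deviations of same-numbered libraries correlated between -0.311 and 0.245, with 2 of 9 pairs above 0.1, so the numbers were not taken as pairs and the replicate block is given for comparison only. A missed threshold does not show that levels were equal.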
